A study of Mus musculus with 40 samples.

Results

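In wild-type small pre-B cells, 3343 genomic sites carried peaks of the cohesin subunits RAD21 and SMC3 together with peaks of the cohesin loader NIPBL. The sites were chosen by their wild-type peak lists: a peak of the first RAD21 library had to overlap, by at least 1 bp, a peak in the second RAD21 library, in both SMC3 libraries and in both NIPBL libraries. Of 42423 peaks in the first RAD21 list, 35434 overlapped a peak of the second and 26160 of those overlapped both SMC3 lists. These 26160 are called cohesin sites below. The 3343 sites with NIPBL in both lists were 12.8% of them, 9559 cohesin sites had NIPBL in 1 list, and 13258 had NIPBL in neither.

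Cohesin is a ring-shaped complex that holds stretches of chromatin together and extrudes loops. RAD21 closes the ring formed by SMC3 and its partner SMC1, NIPBL loads cohesin and drives loop extrusion, WAPL releases the ring from chromatin, and CTCF, a zinc finger protein that binds DNA by sequence, stops moving cohesin at loop anchors. In developing B cells cohesin and CTCF fold the immunoglobulin loci before recombination. H3K27ac marks active promoters and enhancers, and H3K4me1 marks enhancers, both active and primed.

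ChIP-seq libraries of these proteins and marks were made from small pre-B cells, a stage of light chain gene recombination, that had been flow-sorted from mouse bone marrow and, unless treated, not cultured. The groups were wild type (WT), Brwd1-/- mice (KO), which lack the histone-binding protein BRWD1, and WT cells held for 2 h with 126 nM oligomycin A (labelled ATPneg), which blocks ATP synthesis by mitochondria. Age, sex and strain are not given in the sources used here, and BRWD1 was not itself a target. RAD21, SMC3, NIPBL and WAPL were mapped in all 3 conditions, and CTCF, H3K27ac and H3K4me1 in WT and KO. Of the 40 samples, 36 were ChIP libraries, with 2 biological replicates per target and condition, and 4 were inputs. The ATPneg libraries have peak lists here and no counts, so their depth is unknown, and no untreated culture stands beside the 2 h in culture.

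Several facts about the libraries stand before the results. Within the regions of each target, RAD21, SMC3 and NIPBL held 3784506 to 7415143 reads in KO libraries and 15416715 to 24962590 in WT libraries, so for these proteins genotype and depth cannot be told apart. WAPL ran the other way, with 28011360 to 30496715 reads in KO and 21488840 to 21978527 in WT. The CTCF WT libraries held 3880112 and 17055094 reads, and their lists held 21429 and 67796 peaks. The first NIPBL WT list carries peak names of the second NIPBL KO library and the reverse holds for that KO list, while list lengths follow the labels (25979 and 55995 peaks in WT, 2333 and 2048 in KO). The H3K27ac KO lists carry H3K4me1 WT names, the H3K4me1 WT lists carry H3K27ac KO names, and the genotype tag of the H3K27ac and H3K4me1 KO samples reads WT against their titles, which were followed. Of the pre-B markers, 6 of 10 had an H3K27ac peak at the promoter in both WT libraries (Cd79b, Pax5, Ebf1, Rag1 and Blnk among them), as did 3 of 5 T cell markers (Cd3e, Cd3g and Cd4), 1 of 5 myeloid and 1 of 4 erythroid markers. What part these facts have in the results below was not tested beyond the values given.

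Few of the sites lay at gene starts. Of the 3343, 31 lay within 1 kb of the start of a gene, 0.927% with an exact (Clopper-Pearson) 95% interval of 0.631 to 1.31%, and 28 of the 31 carried H3K27ac. The promoters of 3 of these genes, each with a site within 300 bp of the start, are shown to let a reader see both promoters of the set that hold letters of the CTCF motif and 1 that does not. The site of Wipf2, a gene for an actin regulator of the WASP-interacting family, was at chr11:98725019-98725138 (mm9), 102 bp downstream of the start, and had CTCF in both WT lists. The site of Unc45a, a myosin chaperone gene, was at chr7:87484641-87484812, 255 bp downstream. The site of Ptprz1, a receptor tyrosine phosphatase gene of the nervous system, was at chr6:22825658-22825776, 155 bp downstream. Each line below gives the 250 bases before the start, 5' to 3' on the strand of the gene, from RefSeq's promoters of build GRCm38.p6. Capitals mark the letters AGNGGGC or their reverse complement GCCCNCT, part of the core of the CTCF motif. The windows are chr11:98863348-98863597 on the plus strand, chr7:80340220-80340469 on the minus strand and chr6:22875252-22875501 on the plus strand in that build, and the mm9 sites were not placed on them.
Wipf2: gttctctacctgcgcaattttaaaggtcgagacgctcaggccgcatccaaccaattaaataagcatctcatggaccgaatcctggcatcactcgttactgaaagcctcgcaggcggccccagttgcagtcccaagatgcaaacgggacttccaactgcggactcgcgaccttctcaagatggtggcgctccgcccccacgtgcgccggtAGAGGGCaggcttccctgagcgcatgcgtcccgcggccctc
Unc45a: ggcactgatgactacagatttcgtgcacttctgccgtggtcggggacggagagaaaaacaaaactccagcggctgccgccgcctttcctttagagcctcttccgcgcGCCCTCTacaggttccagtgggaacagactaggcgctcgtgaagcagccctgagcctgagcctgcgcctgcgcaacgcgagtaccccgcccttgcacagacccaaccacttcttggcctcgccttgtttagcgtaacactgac
Ptprz1: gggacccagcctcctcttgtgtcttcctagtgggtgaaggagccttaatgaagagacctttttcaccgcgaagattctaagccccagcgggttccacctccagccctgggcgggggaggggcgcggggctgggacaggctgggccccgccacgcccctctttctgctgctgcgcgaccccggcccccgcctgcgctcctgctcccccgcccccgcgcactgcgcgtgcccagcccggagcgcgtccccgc
Wipf2 has AGAGGGC 41 bases before the start, Unc45a has GCCCTCT 143 bases before it, and Ptprz1 has neither form. Of 23 distinct nearest genes within 1 kb, 14 matched a RefSeq promoter and 2 held the letters, beside 22.45% of 32851 promoters of the same length.

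The sites were of a pair of kinds that differed in mark, width and input. An H3K27ac peak was present in both WT libraries at 1447 sites (43.3%), in 1 library at 24, and in neither at 1872. Sites with H3K27ac had a median width of 125 bp, and 96.1% were under 300 bp. Sites without it had a median of 2706.5 bp, and 76.3% were 1000 bp or wider. The input, chromatin sequenced without an antibody, differed as well: per kb of region, with both input columns of the RAD21 table summed, it held a median of 933 reads at sites with H3K27ac and 26.8 at sites without. More than 100 input reads per kb, called dense input here, was reached by 99.6% of the former and 16.0% of the latter. Mark, width and input density thus moved together over the sites, with the unmarked sites of dense input as the main exception.

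**Figure D1:**
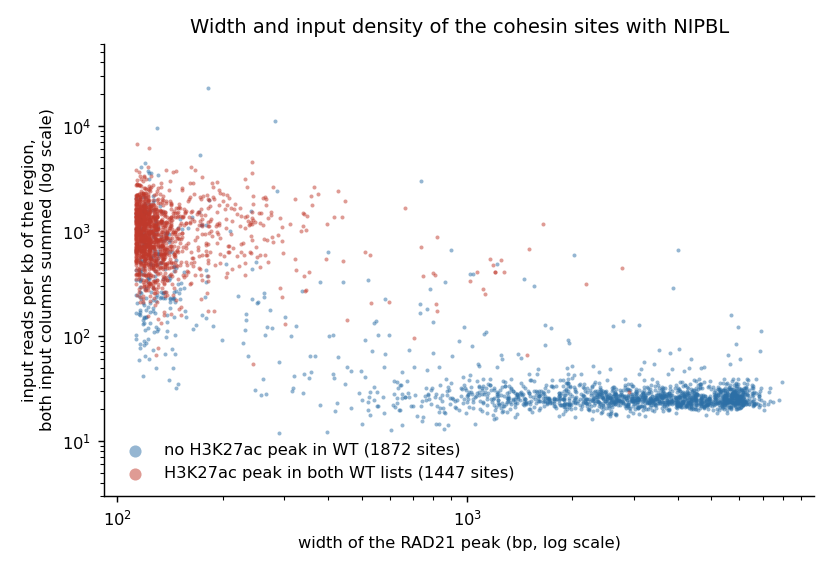
Each point is 1 of the sites with NIPBL, placed by the width of its RAD21 peak in bp (x axis, log scale) and by input reads per kb of its region (y axis, log scale), coloured by H3K27ac in both WT lists (1447 sites, red) or neither (1872 sites, blue). Red points gather at narrow widths and dense input (medians 125 bp and 933 reads per kb), and most blue points at wide widths and sparse input (medians 2706.5 bp and 26.8 reads per kb).

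By width, 1699 sites (50.8%) were under 300 bp, 197 were 300 bp to under 1000 bp, 586 were 1000 bp to under 3000 bp and 861 were 3000 bp or more, with a lowest width of 113, a median of 264 and a highest of 7964 bp. The share with H3K27ac was 81.9%, 20.3% and 2.73% in the first 3 classes, and none of the 861 widest sites had it. H3K4me1 in both lists labelled WT followed the same course, at 82.1%, 20.8%, 2.73% and 0.581%, and 1432 of the 1447 sites with H3K27ac also had H3K4me1. CTCF in both WT lists was found at 289 sites (8.64%), of which 265 were under 300 bp. That count was set by the first CTCF WT library, which had a peak at 8.64% of the sites, against 79.9% in the second. WAPL, which the rule did not use, had a peak in both WT lists at 3265 sites (97.7%).

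The cohesin sites without NIPBL, like the unmarked kind, had sparse input and rarely the mark, but were narrower and had lower shares with other listed peaks. Their median width was 676 bp, 0.219% had H3K27ac in both WT lists and their median input was 26.1 reads per kb, with dense input at 3.85% against 16.0% of the unmarked sites with NIPBL. The second CTCF WT list had a peak at 10.4% of them and at 64.3% of those unmarked sites, and the second RAD21 KO list at 7.01% and 49.6%. Cohesin sites with NIPBL in 1 list had a median width of 1622 bp, and 1.01% had H3K27ac. The peak score of the authors' lists (the lowest listed is just over 5) describes the edge of the rule. In the first NIPBL WT list the peaks at the 3343 sites had a lowest score of 5.01 and a median of 8.95, and those at the 410 cohesin sites found by this list alone had a median of 5.36. In the second NIPBL WT list the medians were 14.9 at the sites and 6.49 at the 9149 cohesin sites found by that list alone. So the first NIPBL list, the one with names of another library, decided which cohesin sites became members: without it, 12492 sites qualified and 12.3% of them had H3K27ac.

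Relative to input, RAD21 and SMC3 in WT stood high at the wide unmarked sites and near the average of all their regions at the narrow marked ones. The measure takes the reads of a ChIP library in all regions of its target and gives the share at the sites. This share is divided by the same share of the input of the same genotype. A value of 1 is thus the ratio of ChIP to input over all regions of the target, and not a lack of enrichment. Because the sites were chosen on these WT libraries, the values are a description. At sites without H3K27ac the RAD21 ratio was 4.93 and 5.01 in the WT libraries and 1.07 and 1.58 in the KO libraries. At sites with H3K27ac it was 1.12 and 1.22 in WT and 1.45 and 1.5 in KO. The KO values lay below both WT values at the unmarked sites and above both at the marked ones.

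SMC3, the partner of RAD21 in the ring, gave ratios of 3.31 and 3.56 in WT and 1.21 and 1.25 in KO at sites without H3K27ac. At sites with it, the WT ratios of 1.05 and 0.882 and the KO ratios of 0.996 and 0.963 overlapped and lay near the average of all SMC3 regions. NIPBL, the loader, had 2.24 and 2.14 in WT and 1.12 and 1.16 in KO at unmarked sites, and 1.48 and 1.49 in WT and 1.33 and 1.37 in KO at marked sites. Of these 3 proteins NIPBL alone had both WT ratios above both KO ratios in both kinds of site, and it had the highest WT ratios of the 3 at marked sites. The cohesin sites without NIPBL had RAD21 ratios of 4.46 and 4.67 in WT and 1.04 and 1.27 in KO, close to those of the unmarked sites with NIPBL.

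WAPL, the release factor, had ratios of 3.17 and 3.21 in WT and 1.05 and 1.11 in KO at sites without H3K27ac, and of 1.34 and 1.26 in WT and 1.60 and 1.63 in KO at sites with it. The WAPL libraries thus followed the same pattern as RAD21, with the deeper libraries in KO rather than in WT. CTCF gave 0.928 and 1.82 in WT and 0.968 and 0.977 in KO at unmarked sites, and 0.959 and 1.46 in WT and 0.709 and 0.650 in KO at marked sites. The first CTCF WT library lay near the average of all CTCF regions in both kinds of site, and the WT and KO ratios overlapped at the unmarked ones.

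**Figure D2:**
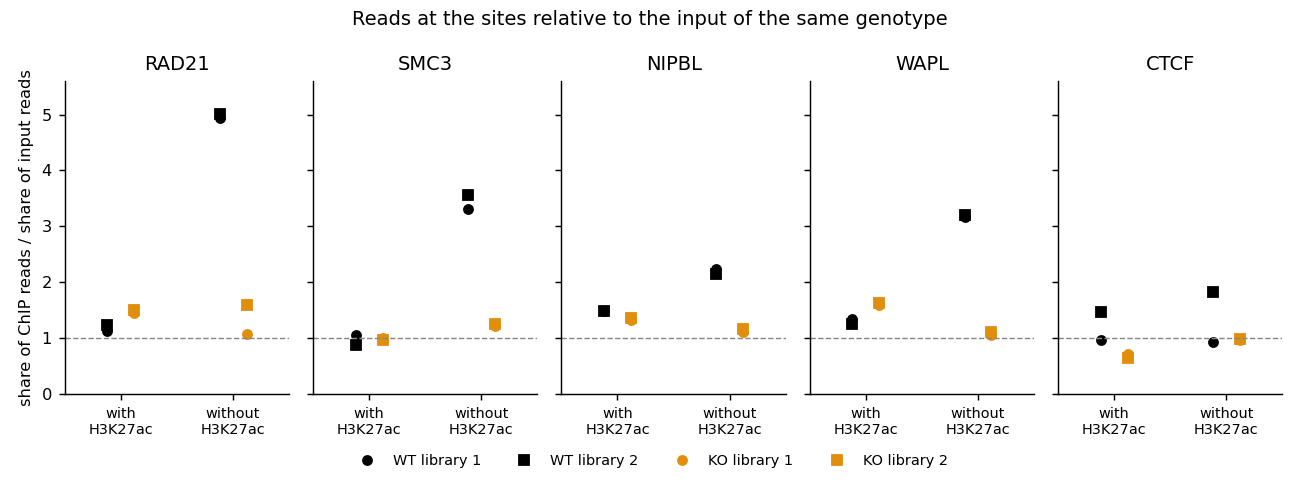
Share of ChIP reads at the sites divided by the share of input reads there, both out of all regions of the target (y axis, no unit). The x axis gives 5 targets and both kinds of site. Each point is 1 library, black for WT and orange for KO. The dashed line at 1 is the ratio of ChIP to input over all regions of the target. RAD21, SMC3 and WAPL reach 3.17 to 5.01 in WT at sites without H3K27ac and 1.05 to 1.58 in KO.

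WAPL read counts were lower in KO at most of the wide unmarked sites and slightly higher at the narrow marked ones. At the unmarked sites many of the WAPL regions exist only through WT peaks, as given below. The sites overlapped 3536 WAPL regions, of which 3528 had enough reads to be tested. In edgeR's quasi-likelihood test, adjusted over all 126089 tested WAPL regions at a threshold of 0.05, 1795 (50.9%) were lower in KO and 520 (14.7%) were higher. Over all WAPL regions 27.6% were lower and 13.1% higher, so the share of lower regions stood above the background and that of higher regions near it. The median log2 fold change of KO against WT was -0.87 at the sites and 0.07 over all regions. Both KO libraries lay below both WT libraries at 54.5% of the regions at the sites, against 36.1% of all regions, and above both at 34.4%, against 36.7%.

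Split by mark, 450 of 1448 WAPL regions at sites with H3K27ac were higher in KO and 33 lower, with a median log2 fold change of 0.32. At sites without H3K27ac, 67 of 2058 were higher and 1750 lower, with a median of -1.47. At sites of 1000 bp or more, 1585 of 1647 were lower and none was higher. At sites without H3K27ac a WAPL peak was in both WT lists at 96.3% and in at least 1 KO list at 35.6%. Many regions there thus exist only through WT peaks, a choice that leans their calls to lower, and how far was not tested. Library totals and background scaling, which shift all regions alike, moved the median of all WAPL regions from 0.07 to 0.24 and 0.52. With library totals 918 of 3528 regions at the sites were higher and 1744 lower, beside 27669 and 31674 of all 126089. With background scaling 1399 were higher and 1664 lower, beside 48771 and 25234 of all. The gap between the medians at marked and unmarked sites was 1.79, and it was 2.47 with input-subtracted counts and 0.886 without dense-input regions. This pattern was not particular to sites with NIPBL. Over all WAPL regions the median was 0.35 where input was dense (83867 regions) and -1.36 where it was not (42222), and at cohesin sites without NIPBL it was -1.43, with 91.9% of regions lower in KO. At unmarked sites with dense input, the exception above, 65 of 319 regions were higher and 78 lower, with a median of 0.19. When dense-input regions were left out and the rest scaled anew, the median at the unmarked sites was -0.14. Of the 1743 regions then left at all sites, 398 were lower and 50 higher, beside 1798 and 2437 of all 42199.

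The definition of a site also turned this count. With an overlap of at least 50% of the site, 1869 sites remained, mostly narrow ones, and WAPL was higher in KO at 519 of their regions and lower at 212, with a median of 0.29. With peaks of at least 2 times the lowest score, 228 were higher and 85 lower. Without the first NIPBL WT list, 9954 of 12131 regions (82.1%) were lower and 554 higher. With either KO library left out, far fewer regions passed, both at the sites and over all regions. The median was then -0.83 at the sites and 0.04 over all regions without the first, and -0.84 and 0.04 without the second.

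**Figure D3:**
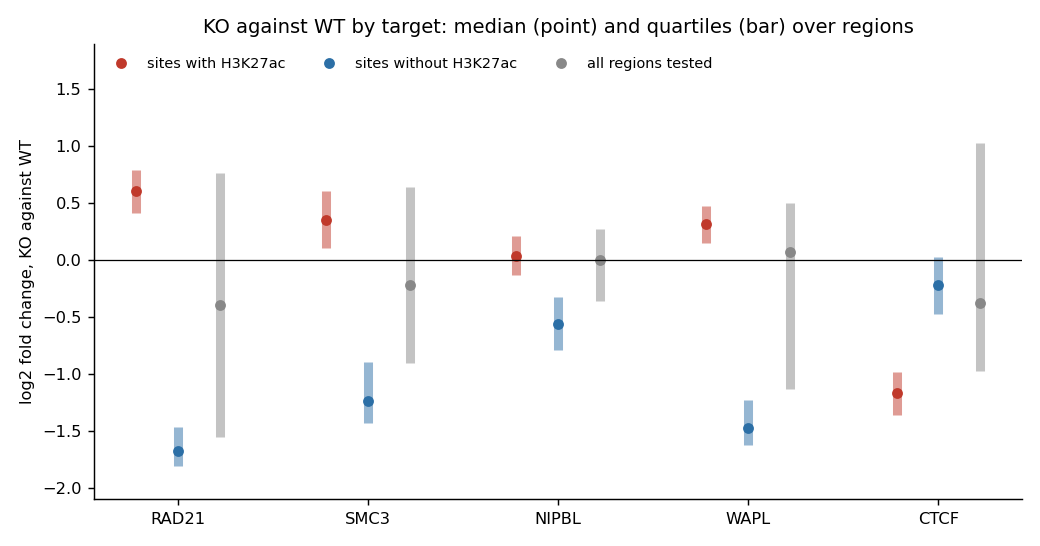
Log2 fold change of KO against WT (y axis) for RAD21, SMC3, NIPBL, WAPL and CTCF (x axis); points are medians and bars run from the lower to the upper quartile over regions at sites with H3K27ac (red), at sites without it (blue) and over all regions tested (grey). The WAPL medians are 0.32, -1.47 and 0.07; the RAD21, SMC3 and NIPBL values describe sites that were chosen on their WT libraries.

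Named by size of change among well-covered regions, the WAPL regions that fell most included those nearest to Shroom2, Ptx3 and Hsfy2. The region near Shroom2, a regulator of cell shape, had 8.52 and 8.96 CPM (counts scaled to library size and composition) in WT and 1.45 and 1.54 in KO, a log2 fold change of -2.54 with a standard error of 0.20 and an adjusted p of 0.00145. At the site near Ptx3, which encodes a secreted pattern recognition protein, WAPL fell from 12 and 11.1 CPM in WT to 3.0 and 3.05 in KO. The region near Hsfy2 had 43.2 and 41.0 CPM in WT and 12 and 10.3 in KO. Without dense-input regions the log2 fold changes near Ptx3 and Hsfy2 went from -1.93 and -1.92 to -0.56 and -0.54, and both still passed.

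The WAPL regions that rose most lay nearest to Rpap3, Fut8, Rasgrf1 and Shisa2, at narrow sites without H3K27ac, with log2 fold changes from 1.97 to 2.17. Near Rpap3, which encodes a partner of RNA polymerase assembly, WAPL was 1.16 and 1.09 CPM in WT and 3.44 and 6.77 in KO (adjusted p of 0.0120). Near Fut8, the core fucosyltransferase gene, it was 1.45 and 3.71 in WT and 8.79 and 12.4 in KO. The calls near all 4 of these genes were lost when a KO library was left out (adjusted p from 0.0637 to 0.119).

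CTCF gave no called difference at the sites, with WT libraries that lay far apart. None of 2958 tested CTCF regions at the sites was higher or lower in KO by edgeR. An unadjusted p under 0.05 was reached by 388 of them, beside 11537 of all 75717 regions. Over all 75717 regions 0.00792% were higher and 0.0317% lower. DESeq2 also called none. The median log2 fold change was -0.80. The median region at the sites had 7.57 and 14.0 CPM in the WT libraries and 6.56 and 6.34 in KO. At sites with H3K27ac these values were 16.5 and 28.9 in WT and 10.5 and 9.23 in KO, with a median log2 fold change of -1.17, and both KO libraries lay below both WT libraries at 89.8% of the regions, against 40.8% of all regions. At sites without it they were 2.61 and 6.84 in WT and 4.10 and 4.23 in KO, with a median of -0.22, so there the KO libraries lay between the WT libraries. Of the 1449 CTCF regions at marked sites, 1446 had dense input. Over all CTCF regions the median log2 fold change was -0.88 where input was dense (44778 regions) and 1.09 where it was not (30939). A fall in dense-input regions was thus not particular to the marked sites. Without the first WT library the median log2 fold change was -1.06 at the sites and -0.59 over all regions, and without the second -0.21 and -0.02.

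H3K27ac was modestly lower in KO at the sites that carried it. Of 1541 tested H3K27ac regions at the sites, 700 (45.4%) were lower in KO and 146 (9.47%) higher, with a median log2 fold change of -0.19. Over all 235173 regions 10.6% were lower and 5.9% higher, with a median of 0.02. The regions at the sites were also much stronger, with a median of 13.7 CPM in both WT libraries against 1.45 and 1.47 over all regions, which makes small changes easier to call, and how much of the excess this gives was not tested. Library totals moved the split to 437 lower and 198 higher and background scaling to 1152 lower and 124 higher, and DESeq2 called 375 lower and 75 higher. The shares over all regions under these alternatives were not worked out. Dense input was reached by 99.6% of the sites with H3K27ac. No input counts by genotype were at hand for this mark, so how far input enters these changes was not tested. At sites without WT H3K27ac the regions exist only through KO peaks, so their 66 higher calls of 69 were fixed by that choice.

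The region that fell most lay by the heavy chain constant gene Ighm. The site, at chr12:114662543-114663703, was 1161 bp wide and lay at -1601 bp from the start of Ighm (upstream), on the side of the joining segments. The intronic heavy chain enhancer is known to lie between the joining segments and this gene. The H3K27ac region there (chr12:114662215-114665333) had 62.8 and 67.5 CPM in WT and 11.9 and 11.3 in KO, a log2 fold change of -2.49 with a standard error of 0.06 and an adjusted p of 5.42e-91. H3K4me1 over the same site, in a region assigned to the joining segment Ighj1 (chr12:114661857-114668230), was 215 and 219 CPM in WT and 31.4 and 33.4 in KO, a log2 fold change of -2.74 with a standard error of 0.05. For both marks the KO libraries lay far below the WT libraries.

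The proteins changed less at the Ighm site. WAPL was 24.3 and 23.9 CPM in WT and 16.9 and 21.6 in KO, which did not pass the test (log2 fold change of -0.32, standard error 0.14, adjusted p of 0.125). RAD21 was 43.1 and 47.3 in WT and 27.9 and 27.2 in KO, and SMC3 75.5 and 86.0 against 58.2 and 61.5. NIPBL was 39.2 and 31.6 in WT and 50.3 and 40.4 in KO, with both KO values above both WT values. No KO list of these 4 proteins had a peak at the site. Under oligomycin 1 RAD21 list and both SMC3 lists had one, and neither NIPBL nor WAPL did.

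H3K27ac was also lower in KO near Samd5, at 7.83 and 7.42 CPM in WT and 2.25 and 2.31 in KO, and near Hpgds, a prostaglandin D synthase gene, at 54.3 and 58.7 in WT and 20.6 and 23.2 in KO. Near Zadh2 it was 23.1 and 26.1 in WT and 8.52 and 9.76 in KO. All 3 sites had H3K27ac in WT and measured 243 to 251 bp. The 4 named regions that were higher, near Setbp1, Naa20, Zfp821 and Zfp106, had 0.153 to 0.441 CPM in WT and 2.92 to 4.64 in KO, with log2 fold changes of 3.46 to 3.77, and none of these sites had an H3K27ac peak in WT.

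H3K4me1 followed H3K27ac with a smaller share, and for it too no input counts by genotype were at hand. Of 1527 tested H3K4me1 regions at the sites, 457 (29.9%) were lower in KO and 62 (4.06%) higher, against 9.98% and 6.44% of all 179582 regions, and the median log2 fold change was -0.13. Library totals moved the split to 312 lower and 135 higher, background scaling to 673 lower and 46 higher, and DESeq2 called 136 lower and 32 higher. The shares over all regions under these alternatives were not worked out. Higher in KO were the regions near Zfp825 (15.2 and 15.4 CPM in WT, 65.6 and 59.7 in KO) and near Smo, the Hedgehog signal transducer (27.4 and 26.4 in WT, 96.0 and 94.1 in KO). These regions lay at sites of 2187 and 1504 bp that had H3K27ac, which is rare at that width. Near Ezh2, the H3K27 methyltransferase gene, H3K4me1 was 11.6 and 10.4 in WT and 25.3 and 23.3 in KO, and near Tcp10c 21.0 and 21.2 against 54.9 and 56.9. Beside Ighj1, the lower regions lay near Rgs6, Cdk5r1 and Ap3s1, at log2 fold changes of -1.91, -1.32 and -1.27.

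For RAD21, SMC3 and NIPBL the fold changes of KO against WT are a description, since the rule chose sites with peaks in their WT libraries. Of 3314 RAD21 regions at the sites, 1383 passed as lower and 65 as higher, beside 21.1% and 2.3% of all RAD21 regions, and the median log2 fold change was -1.06. It was 0.60 at sites with H3K27ac and -1.68 at sites without. Of 3420 SMC3 regions, 1518 passed as lower and 316 as higher, beside 18.1% and 22.1% of all, with medians of 0.35 at marked and -1.24 at unmarked sites. Of 4398 NIPBL regions, 106 passed as lower and 30 as higher, beside 0.63% and 0.995% of all, with medians of 0.04 and -0.56. The order of these medians followed the ratios to input: RAD21 had the widest gap between the kinds of site and NIPBL the narrowest. Such a split was not particular to the sites. Over all RAD21 regions the median was 0.67 where input was dense and -1.50 where it was not. The same pair was 0.39 and -0.56 for SMC3 and 0.13 and -0.56 for NIPBL. At cohesin sites without NIPBL the median was -1.61 for RAD21 and -0.98 for SMC3. The RAD21 calls were lost in several alternatives. No RAD21 region, at the sites or elsewhere, passed under background scaling (medians 1.5 and -0.76), a replicate block, no filter, input-subtracted counts or without dense-input regions. DESeq2 passed 1065 at the sites as lower and 668 as higher, beside 5289 and 11722 of all 84996, whose median was 0.07. The NIPBL calls turned to 167 higher and 140 lower under background scaling, beside 3341 and 516 of all 61586 regions. The NIPBL median without the first KO library was -0.34 at the sites and -0.01 over all regions. Without the first RAD21 KO library the median over all sites was -0.35, and without the second WT library -0.58. With dense-input regions left out, the medians at unmarked sites were -0.25 for RAD21, -0.66 for SMC3 and -0.04 for NIPBL.

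Peaks in the KO lists were more frequent at marked than at unmarked sites for all 4 proteins. A peak in both KO lists was found at 63.1% and 6.25% of these for RAD21, 98.5% and 17.4% for WAPL, 8.50% and 1.44% for SMC3, and 19.4% and 2.19% for NIPBL. RAD21 had a peak at 32.1% of the sites in the first KO library and 70.0% in the second, whose lists held 16283 and 38712 peaks, and in both at 1036 sites (31.0%). WAPL had one at 53.8% and 62.9%, and in both KO lists at 1772 sites (53.0%). SMC3 kept a peak in both KO lists at 155 sites (4.64%) and NIPBL at 326 (9.75%). No KO peak of any of these 4 proteins was listed at 722 sites (21.6%), and 720 of these had no H3K27ac. The short NIPBL KO lists were rich in these sites: they made up 20.1% of the 2333 peaks and 31.2% of the 2048.

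After oligomycin, the narrow marked sites kept listed peaks far more often than the wide unmarked ones. NIPBL had a peak in the ATPneg lists at 42.2% and 39.1% of the sites and in both at 1246 (37.3%, interval 35.6 to 38.9%, which covers counting error only). SMC3 had one at 35.1% and 37.1%, and in both at 1036 (31.0%). WAPL had one at 23.3% and 27.4%, and in both at 646 (19.3%), and RAD21 at 30.7% and 21.1%, and in both at 557 (16.7%). The loader was therefore listed at more of these sites than the ring subunits under oligomycin, though lists of different length and unknown depth are not compared by a test.

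Split by mark, a peak in both ATPneg lists was found at 77.9% of sites with H3K27ac and 6.20% of sites without for NIPBL, 65.2% and 4.91% for SMC3, 41.9% and 2.08% for WAPL, and 31.9% and 4.81% for RAD21. None of the 4 proteins had any ATPneg peak at 1736 sites (51.9%), which were 5.67% of the marked and 87.7% of the unmarked sites. RAD21, SMC3 and NIPBL were all present in both ATPneg lists at 441 sites (13.2%), of which 407 had H3K27ac. Among cohesin sites without NIPBL, RAD21 was present in both ATPneg lists at 0.913%, SMC3 at 0.211% and WAPL at 0.0453%. The small WAPL ATPneg lists of 3280 and 4623 peaks had 23.8% and 19.8% of their peaks at the sites. These shares rested on the first NIPBL WT list: without it in the rule, NIPBL was in both ATPneg lists at 10.3% of the sites, SMC3 at 8.65%, WAPL at 5.28% and RAD21 at 5.07%.

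**Figure D4:**
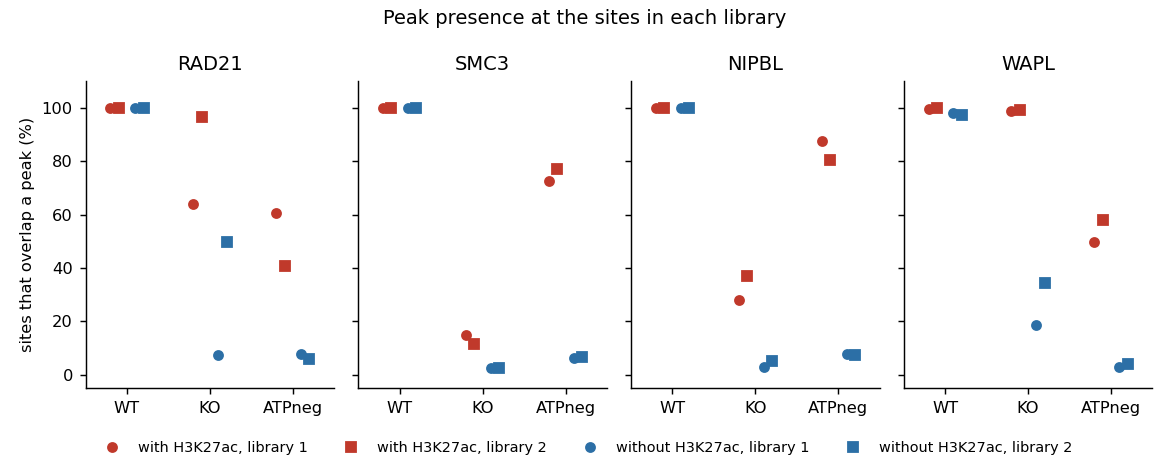
Percent of the sites that overlap a listed peak (y axis) in WT, KO and ATPneg (x axis), with a panel for each of RAD21, SMC3, NIPBL and WAPL; red marks sites with H3K27ac and blue sites without, circles the first and squares the second library. In ATPneg the red points lie above the blue points in every panel, for example 77.9% against 6.20% for NIPBL in both lists; the WT values of RAD21, SMC3 and NIPBL are 100% by the rule.

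Most sites lay far from gene starts, and 29.5% lay within a gene (35.3% of sites with H3K27ac and 24.9% of those without). The median distance to the start of the nearest gene was 49.6 kb over sites with a gene within 200 kb, 1180 sites (35.3%) had none within that distance, and 66 lay within 2 kb of a start. The sites named 1814 nearest genes. Sites with H3K27ac were a median of 41.9 kb from a start and 27.7% had no gene near, against 56.1 kb and 41.5% of sites without. Chromosome 1 held 434 sites and the X chromosome 233, and 186 sites lay on contigs with no assigned place, all of them without H3K27ac. Neighbouring sites were a median of 487 kb apart, and 305 (9.12%) had another within 10 kb.

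Among gene lists for the B lineage and its metabolism, few genes had a site as their nearest and none at its promoter. Of 33 B lineage transcription factors 4 did (Foxo1, Id2, Lef1 and Mef2c), as did 4 of 22 genes of pre-B receptor signalling and recombination (Blk, Prkdc, Rag2 and Xrcc4) and 4 of 11 migration genes (Ccr7, Cd44, Cxcr4 and S1pr1). The counts were 1 of 27 for oxidative phosphorylation (Ndufa4), 1 of 17 for glycolysis (Pfkp, with 3 sites), 1 of 25 for the cell cycle (Mcm5), 0 of 19 for cohesin and its regulators and 0 of 27 for ribosomal proteins. Of the lists for other tissues, 3 of 14 T cell genes (Bcl11b, Cd28 and Themis) and 2 of 20 neuronal or other genes (Gria2 and Ins2) had one. Sites were thus nearest to genes of other lineages as well as to genes of the B lineage.

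The sites near lineage genes show both kinds side by side. Over all WAPL regions without dense input, 32735 of 42222 were lower in KO and 272 higher, with a median log2 fold change of -1.36. Where input was dense, 16226 of 83867 were higher and 2094 lower, with a median of 0.35. The WAPL values at the genes below stand beside these. Foxo1 encodes a transcription factor needed for Rag expression and light chain recombination. Its wider site, at chr3:52234753-52239132 (4380 bp, 162493 bp downstream of the start), had no H3K27ac and 24.0 input reads per kb. RAD21 there was 33.3 and 31.3 CPM in WT and 6.44 and 10.3 in KO. SMC3 was 33.9 and 39.4 in WT and 8.35 and 14.5 in KO. WAPL was 31.5 and 30.9 in WT and 9.16 and 9.79 in KO, a log2 fold change of -1.72 with a standard error of 0.11 and an adjusted p of 0.00142. The KO libraries lay below the WT libraries for each of these proteins, and no ATPneg or KO list had a peak there.

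Rag2 encodes a subunit of the recombinase itself. Its site, at chr2:101322157-101327942, was 5786 bp wide and lay at -136963 bp from the start (upstream), with 22.8 input reads per kb. WAPL fell there from 21.4 and 21.7 CPM in WT to 7.15 and 7.41 in KO (log2 fold change of -1.57, adjusted p of 0.00142), beside a median of -1.36 over all WAPL regions without dense input. RAD21 was 38.4 and 37.7 in WT and 6.04 and 15.7 in KO. Xrcc4, an end-joining factor, had a site of 6174 bp (chr13:90182557-90188730) at which WAPL fell from 31.7 and 32.5 to 10.2 and 10.8 CPM. The site near Mef2c, a transcription factor gene of the B lineage, was 3489 bp wide (chr13:83559236-83562724), and WAPL fell from 19.8 and 17.3 to 7.09 and 7.51 CPM.

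T cell genes had sites of the same unmarked kind. Near Cd28, a T cell costimulatory receptor, a site of 3519 bp (chr1:60745853-60749371) had WAPL at 19.6 and 20.6 CPM in WT and 6.87 and 6.13 in KO (log2 fold change of -1.63, adjusted p of 0.00155). Near Bcl11b, a T cell commitment factor, WAPL fell from 15.2 and 15.5 to 6.56 and 7.41 CPM at a site of 2590 bp. The log2 fold changes at the 4 T cell sites were -1.13 to -1.63, beside -1.35 to -1.72 at the Foxo1, Rag2, Xrcc4 and Mef2c sites, and no ATPneg list had a peak at the Cd28, Bcl11b or Themis sites.

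The marked sites near lineage genes behaved in the opposite way or did not pass the test. The site near Blk, a kinase of the B cell receptor pathway, was 243 bp wide (chr14:64014756-64014998), had H3K27ac and CTCF in both WT lists and held 3571 input reads per kb. WAPL rose there from 106 and 103 CPM in WT to 139 and 142 in KO (log2 fold change of 0.43, standard error 0.07, adjusted p of 0.00802). RAD21 was 68.2 and 67.3 in WT and 150 and 99.7 in KO, and every KO and ATPneg list of the 4 proteins had a peak at the site. Near Lef1, a transcription factor gene, WAPL rose from 4.60 and 4.31 to 7.64 and 7.14 CPM (adjusted p of 0.0254). Near Id2, an antagonist of E proteins, it was 14.4 and 13.8 in WT and 18.8 and 16.9 in KO, which did not pass (adjusted p of 0.0702), and near Cd44, an adhesion receptor, 26.3 and 20.8 against 32.7 and 30.5 did not pass either (adjusted p of 0.0557).

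**Figure D5:**
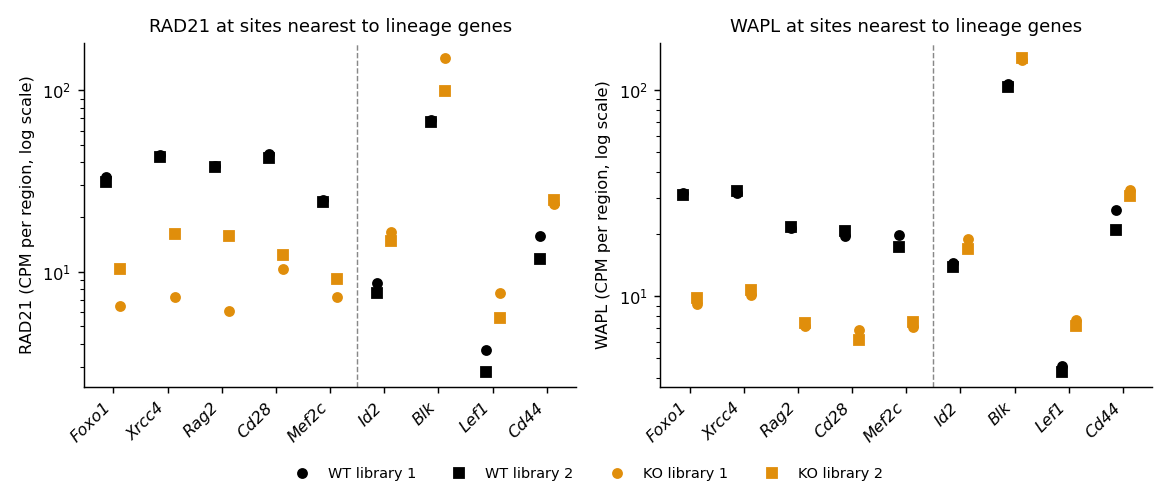
CPM per region (y axes, log scale) of RAD21 (left) and WAPL (right) at sites named by their nearest gene (x axis), with sites without H3K27ac left of the dashed line and sites with it on the right; each point is 1 library, black for WT and orange for KO. WAPL at the Foxo1 site drops from 31.5 and 30.9 to 9.16 and 9.79, and at the Blk site it rises from 106 and 103 to 139 and 142.

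Cxcr4, the receptor that retains B cell precursors in the marrow, had a site of each kind. The wide site, at -182827 bp from the start (chr1:130671724-130675876, 4153 bp), had WAPL at 27.5 and 27.9 CPM in WT and 8.39 and 8.78 in KO, a log2 fold change of -1.69 with an adjusted p of 0.00142, and no ATPneg peak. The narrow site, 31415 bp downstream (chr1:130457283-130457402, 120 bp, with H3K27ac), had WAPL at 13 and 10.7 in WT and 14.4 and 16.3 in KO, which did not pass (adjusted p of 0.101), and at least 1 ATPneg list of each of the 4 proteins had a peak there. Pfkp, a phosphofructokinase gene of glycolysis, had 3 wide sites at -75752 to -171448 bp from its start. WAPL fell at each of the 3, for example from 35.0 and 34.8 to 10.6 and 11.8 CPM at the widest.

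A few narrow sites had library values far apart. At the site near Prkdc, the gene of the DNA-dependent protein kinase, SMC3 was 317 and 44.8 CPM in the WT libraries and 40.5 and 52.9 in KO, so 1 WT library stood alone. At the site near Mcm5, a replicative helicase gene, SMC3 was 87.1 and 12.3 in WT and 9.54 and 10.4 in KO. The site with the most RAD21 reads per kb, near Trim30a, held 22916 input reads per kb, the most of the named sites, and its RAD21 WT values were 1005 and 572 CPM. Among the widest sites were those near Xlr5c (7505 bp) and Huwe1 (7080 bp), both on the X chromosome, and near Zfp69 (6949 bp), and none of these 3 had H3K27ac.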

How the data were processed

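ChIP-seq libraries of mouse small pre-B cells were used as the authors deposited them. Per the submitters' processing notes, the authors' processing on build mm9 involved featureCounts, MACS2, BWA, edgeR, Picard and bedtools; versions are not given in the sources used here. The counts that the authors deposited give the reads of each library in the merged regions of its target, with 1 input column per genotype for RAD21, SMC3, NIPBL, WAPL and CTCF. The deposited peak lists give a score per peak, and the authors' input-subtracted counts were used as a score per region. The deposited normalized signal gave only its gene annotation, and the other deposited tables give region coordinates. A further 2 columns, of inputs from outside the series, were left unused.

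Sites were found with bedtools 2.31.1 at 1 bp. Counts were tested over whole tables with edgeR 4.0.16 in R 4.3.3 (filterByExpr, TMM, quasi-likelihood F test, 2 KO against 2 WT libraries, Benjamini-Hochberg adjusted p under 0.05), and a region belongs to the sites if it overlaps one; a wide region can serve several sites. The fit was tested on simulated data. Because ATPneg has no counts, it is described by peak overlap. Intervals are exact binomial at 95% and cover counting error only. Named regions are, per tested target, the 4 with the largest rise and the 4 with the largest fall (log2 fold change) among called regions at or above the median level whose groups do not overlap, with distinct symbols, passing over predicted, Riken, microRNA and receptor-family symbols; named sites are the 5 widest and the 8 with most RAD21 per kb among sites with a nearest gene that passes the same symbol rule, those of the gene lists, those within 300 bp of a start and those at immunoglobulin promoters, of which the text prints a part, and some named items are not reported here. The promoter rule for gene lists found none, so their nearest sites were named after the values were seen. The members, gene lists and alternatives were chosen with earlier results of these data known. The alternatives comprised scaling by library totals or by background (taken from the weakest 25% of regions), DESeq2 1.42.0, no filter, counts after input subtraction, a block for replicate number, leaving out each library or the dense-input regions, and other site definitions. Python 3.11.15 with pandas 2.3.3, numpy 2.4.6, scipy 1.17.1 and matplotlib 3.10.9 did the rest.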

Additional observations from a re-analysis of the deposited data

How the results depend on the processing

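Under the same site definition no alternative turned the direction of the WAPL, H3K27ac or H3K4me1 counts or of the 24 named regions, and 232 of 242 alternative values of the named regions kept their call; the exceptions are 5 WAPL regions. Site counts were 1869 with 50% overlap, 669 with a score of 2 times the lowest, 12492 without the first NIPBL WT list, 3753 without the second and 3371 with RAD21 WT 2 peaks as the sites. In the same order for the first 4, H3K27ac was at 75.2, 76.2, 12.3 and 38.8% of the sites, and both ATPneg lists held RAD21 at 29.2, 27.8, 5.07 and 15.3%, SMC3 at 54.7, 58.6, 8.65 and 27.8%, NIPBL at 66.0, 70.3, 10.3 and 33.2% and WAPL at 34.4, 38.0, 5.28 and 17.2%. With 2.5 kb, 2.39% of the sites lay at a gene start. The NIPBL list alternatives and the reading of tests over other site definitions were chosen after seeing the data.

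Median log2 fold changes at the sites under library totals, background scaling, no filter, input-subtracted counts, no dense-input regions and DESeq2 were -1.04, -0.20, -0.79, -0.88, -0.24 and -0.61 for RAD21, -0.41, -0.17, -0.51, -1.11, -0.66 and -0.41 for SMC3, and -0.60, -0.21, -0.36, -0.55, -0.044 and -0.35 for NIPBL. With 1 library left out they ran from -1.11 to -0.35 for RAD21, from -0.58 to -0.45 for SMC3 and from -0.40 to -0.33 for NIPBL. WAPL regions higher in KO numbered 918 with library totals, 1399 with background scaling, 329 with input-subtracted counts, 50 (and 398 lower) without dense-input regions, 170 with DESeq2 and 2 to 744 with 1 library left out, when 902 to 1821 were lower. For CTCF these ranges were 0 to 214 higher and 0 to 2217 lower. H3K27ac had 437 lower with library totals, 1152 with background scaling, 375 (and 75 higher) with DESeq2, and 528 to 616 lower and 119 to 133 higher with 1 library left out. H3K4me1 had 135 higher with library totals, 32 higher and 136 lower with DESeq2, and 290 to 394 lower and 44 to 51 higher with 1 library left out. For H3K27ac and H3K4me1 the shares over all regions under these alternatives were not worked out. The cause of these shifts was not tested. The WAPL counts under library totals and background scaling stand beside those over all regions given above. The CTCF counts above 0 came only from the fits without a WT library. In these fits many regions passed over all CTCF regions too, in both directions, so such calls were not particular to the sites. The median CTCF log2 fold change was -1.06 at the sites and -0.59 over all regions without the first WT library. Without the second WT library it was -0.21 and -0.02.

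Replicate numbers only name the samples: deviations of same-numbered libraries correlated at -0.22 for CTCF and at -0.06 to 0.03 for the other targets. With a replicate block, WAPL had 386 higher and 1761 lower regions, H3K27ac 150 and 711, H3K4me1 61 and 469 and CTCF none, and the RAD21, SMC3 and NIPBL medians were -1.11, -0.53 and -0.36. The block took the RAD21 counts from 65 higher and 1383 lower to none, and the NIPBL counts from 30 and 106 to 163 and 821. Over all regions the block gave 3286 higher and 3741 lower for NIPBL, and 12533 and 31931 for WAPL. Leaving out a library leaves 1 sample in a group, assumed to vary like the other group. No input counts by genotype exist in the H3K27ac and H3K4me1 tables used here, so the alternative without dense-input regions was not run for them. Depth limits the KO libraries of RAD21, SMC3, NIPBL and CTCF and the first CTCF WT library, which held 3784506 to 7415143 reads.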

Other observations

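Some sites lay in dense groups that no comparison above describes. The 1-Mb window with the most sites, on chromosome 6 from 47000001 to 48000000 (mm9), held 20, of which 16 had H3K27ac, with a median width of 915 bp and Ezh2 and Rn4.5s among the nearest genes. The next, on chromosome 6 from 114000001 to 115000000, held 17 sites, all with H3K27ac, a median width of 139 bp and the nearest genes Atg7, an autophagy gene, and Hrh1, a histamine receptor gene. Another 3 windows held 8 sites each. On chromosome 1 from 44000001 to 45000000, 1 of 8 had H3K27ac and the median width was 3245 bp, on the X chromosome from 92000001 to 93000000, none of 8 had it and the median width was 2273.5 bp, and on the X chromosome from 166000001 to 167000000, 4 of 8 had it and the median width was 752.5 bp.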
